A study of Danio rerio with 10 samples.

Results

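The SoxB genes encode transcription factors with an HMG box, the DNA-binding domain shared by all Sox proteins. They fall into 2 classes. The SoxB1 genes sox1a, sox1b, sox2, sox3, sox19a and sox19b encode activators that hold cells of the neural plate and neural tube in a dividing progenitor state, and the SoxB2 genes sox21a and sox21b encode repressors, of which the chick Sox21 protein is known to oppose them as neurons form. In zebrafish the class includes duplicate gene pairs, and SoxB1 genes act redundantly in the early embryo. The 8 genes were chosen by symbol, and all 8 of them were found among the 14650 genes of the deposited count table. All 8 passed the filter on low counts, as did 11871 genes in all.

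RNA of whole zebrafish embryos at 17 to 18 somites, kept at 28 °C, was sequenced from 5 tpcn2 mutant and 5 wild-type samples. The mutant group is labelled as coming from a TPC2 mutant line, with neither the allele nor the background strain named, and the wild type is of the ABTU strain. The product of tpcn2 is the lysosomal cation channel two-pore channel 2. The labels call the samples biological replicates without saying whether they are separate clutches, so the p-values below measure the spread between these samples. Strain background and clutch cannot be told apart from genotype. As a check of the labels, tpcn2 was at 9.28 ± 1.56 CPM (counts relative to library size, TMM-scaled) in mutants and 58.0 ± 14 CPM in wild type (SD, n = 5 each). Libraries held 17890367 to 21699665 counts in mutants and 18616906 to 22498643 in wild type. On the second principal component of log2 CPM, wild-type replicate 1 stood apart (33.3), against -4.13 to 2.65 in mutants and -17.0 to -0.71 in the other wild-type libraries. The share of tested genes called at an adjusted p under 0.05 was 42.2%.

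Of the 8 SoxB genes, sox3, sox19a, sox19b and sox21a fell in the mutant, sox2 rose, and sox1a, sox1b and sox21b did not pass the test (edgeR quasi-likelihood test, Benjamini-Hochberg adjustment over all 11871 genes). Decreases were thus called for 4 of 8 members, against 21.6% of all tested genes, and an increase for 1 of 8, against 20.6%. The changes were small. For 7 of 8 members the log2 fold change lay within 0.5 of 0, as it did for 79.6% of all tested genes. The median log2 fold change of the 8 members was -0.20, and that of all tested genes was -0.0011. In bulk RNA, fewer progenitor cells and less SoxB RNA per cell cannot be told apart.

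**Figure D1:**
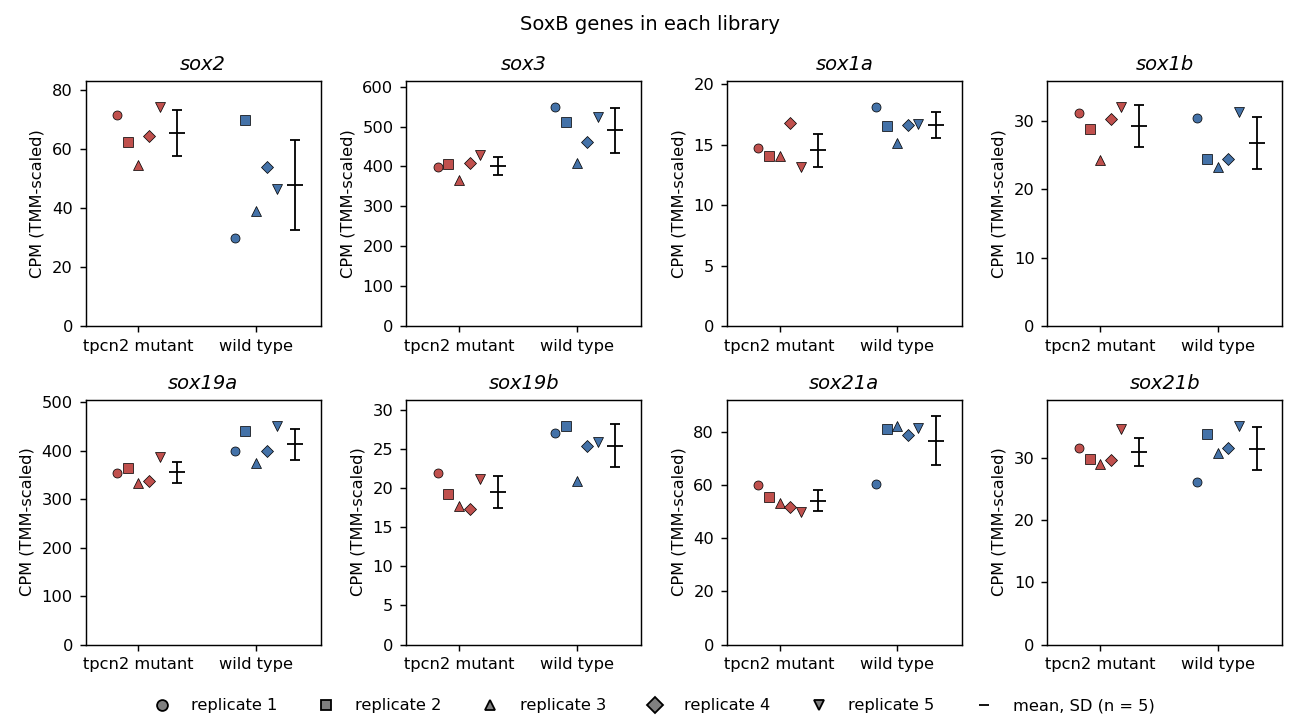
Level of each SoxB gene in CPM (vertical axis, starting at 0, a separate scale per gene) in the 5 tpcn2 mutant libraries (red, left) and the 5 wild-type libraries (blue, right), with the marker shape giving the replicate number and bars the mean and SD. The sox21a libraries of the mutant lie between 50.03 and 60.2 CPM, all below those of wild type, while sox2 spans 29.9 to 70.1 CPM in wild type.

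sox3, a SoxB1 gene expressed through most of the early central nervous system, had 398, 405, 366, 410 and 428 CPM in mutant replicates 1 to 5, against 548, 511, 408, 461 and 524 CPM in wild-type replicates 1 to 5. All 5 mutant libraries were below the wild-type median, and 3 of them were below every wild-type library. The groups overlapped only through wild-type replicate 3. The log2 fold change was -0.29 ± 0.085 (SE), or 0.818 times the wild-type level, with 0.00483 as the edgeR adjusted p and 0.0238 as the p of an exact two-sided permutation test on log2 CPM. Permutation p-values of single genes, here and below, were not adjusted for the number of genes.

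sox19a, a SoxB1 gene active in the neural plate from early stages, had 355, 364, 334, 338 and 387 CPM in mutant replicates 1 to 5, against 400, 440, 376, 399 and 452 CPM in wild type. Of the mutant libraries 4 were below every wild-type library, and replicate 5 lay within the wild-type range. The log2 fold change was -0.22 ± 0.062 (edgeR adjusted p = 0.00774, exact permutation p = 0.0159). Together sox3 and sox19a held 76.5 to 78.6% of the SoxB reads in mutant libraries and 78.8 to 83.2% in wild-type libraries. These shares are of reads and were not corrected for gene length, so they do not rank the genes by transcript number.

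sox19b, the duplicate of sox19a whose RNA the zebrafish egg also carries, was at 22.0, 19.2, 17.7, 17.3 and 21.1 CPM in mutant replicates 1 to 5, against 27.0, 27.9, 20.9, 25.4 and 25.9 CPM in wild type. As with sox3, wild-type replicate 3 was the lowest of its group and fell inside the mutant range. The log2 fold change was -0.39 ± 0.099, a level 0.765 times that of wild type (edgeR adjusted p = 0.00492, exact permutation p = 0.0238). Each library held 347 to 401 reads of sox19b in mutants and 390 to 587 in wild type.

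sox2, which marks neural and sensory progenitors and also the tailbud cells that feed the spinal cord, went the other way. It had 71.7, 62.6, 54.5, 64.5 and 74.3 CPM in mutant replicates 1 to 5, against 29.9, 70.1, 39.0, 54.2 and 46.7 CPM in wild type. All mutant libraries were above the wild-type median of 46.7 CPM, but wild-type replicate 2 was as high as the mutants and the groups overlapped. The log2 fold change was 0.45 ± 0.22, or 1.36 times the wild-type level (edgeR adjusted p = 0.0466, exact permutation p = 0.0476).

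The sox2 call was close to the threshold. With all 10 libraries it stood in 5 of 7 other settings, ending with library size alone and with DESeq2. It stood in only 2 of the 10 fits that each leave out 1 library. It held without wild-type replicate 2 (0.63 on the log2 scale, edgeR adjusted p = 0.00280) and without mutant replicate 3. It ended when wild-type replicate 1, 3, 4 or 5 or mutant replicate 1, 2, 4 or 5 was left out, with edgeR adjusted p between 0.0516 and 0.106, and without wild-type replicate 1 the log2 fold change was 0.32. DESeq2, which called 44.1% of the genes, gave sox2 an adjusted p of 0.0809. In vertebrates sox2 lies within the transcription unit of the noncoding gene sox2ot, and how reads of overlapping genes were assigned is not given in the sources used here.

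The sox2 libraries of wild type were also the most scattered of any SoxB gene. The coefficient of variation (SD over mean) of sox2 was 11.96% in mutants and 31.9% in wild type, where counting error alone would give 2.80% and 3.20%. Without wild-type replicate 1 the wild-type value was 25.3%. For the other 7 members it lay between 5.64 and 10.5% in mutants and between 6.36 and 14.1% in wild type. 7 of 8 members varied more in wild type than in the mutant, as did 66.0% of all tested genes. With wild-type replicate 1 left out these were 5 of 8 members and 56.2% of genes, and the wild-type values of sox21a and sox21b were 1.89% and 6.18%, against 7.33% and 7.40% in mutants. No test was made of these spreads.

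The wild-type libraries did not rank alike in all members. In wild-type replicate 1, which stood apart on the second principal component, sox2, sox21a and sox21b were at their lowest among wild-type libraries, while sox3 (548 CPM) and sox1a (18.1 CPM) were at their highest. The share of SoxB reads that came from sox2 was 2.63% in wild-type replicate 1, against 6.11 to 7.29% in mutants and 3.85 to 5.82% in the other wild-type libraries. In wild-type replicate 3, sox3, sox1a, sox1b, sox19a and sox19b were each at their lowest among wild-type libraries. Summed over the 8 genes the level was 893 to 1040 CPM in mutants and 996 to 1213 CPM in wild type, with medians of 980 and 1140 CPM.

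The sox1 pair, known from the lens and from progenitors and some neurons of the neural tube, did not pass in either copy. sox1a had 14.7, 14.03, 14.02, 16.8 and 13.2 CPM in mutant replicates 1 to 5, against 18.1, 16.5, 15.1, 16.6 and 16.7 CPM in wild type. Of the mutant libraries 4 were below every wild-type library and replicate 4 was not. The log2 fold change was -0.19 ± 0.071, with an edgeR adjusted p of 0.0946, which was 0.0374 without mutant replicate 4, and an exact permutation p of 0.0397. sox1b had 31.2, 28.8, 24.3, 30.3 and 32.0 CPM in mutants, against 30.4, 24.4, 23.3, 24.4 and 31.3 CPM in wild type. The sox1b groups spanned nearly the same range, with a log2 fold change of 0.13 ± 0.11 (edgeR adjusted p = 0.320).

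**Figure D2:**
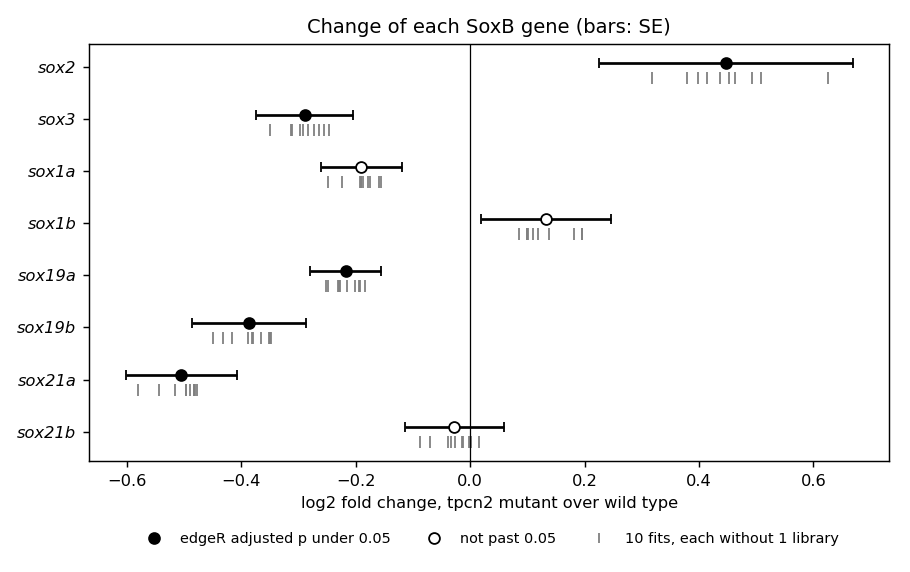
Log2 fold change of each SoxB gene, tpcn2 mutant over wild type (horizontal axis), with SE bars, filled where the edgeR adjusted p was under 0.05 and open where it was not; grey ticks give the 10 fits that each leave out 1 library. sox21a, at -0.50, lies farthest from 0, and the ticks of sox2 spread from 0.32 to 0.63.

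Among the SoxB2 genes, sox21a fell and sox21b did not pass. sox21a had 60.2, 55.7, 53.2, 51.6 and 50.03 CPM in mutant replicates 1 to 5, against 60.3, 81.1, 82.4, 78.8 and 81.5 CPM in wild type. Every mutant library was below every wild-type library, by a margin of less than 1 CPM at wild-type replicate 1 and by a wide margin at the other 4. It was the only one of the 8 members without overlap, against 28.7% of all tested genes without overlap in either direction and 15.0% with the mutant below. The log2 fold change was -0.50 ± 0.097, or 0.705 times the wild-type level (edgeR adjusted p = 2.59e-04), and the exact permutation p of 0.00794 is the smallest that 5 against 5 libraries allow. Without wild-type replicate 1 the log2 fold change was -0.58. sox21b had 31.7, 29.8, 29.1, 29.7 and 34.7 CPM in mutants, against 26.2, 33.9, 30.7, 31.7 and 35.2 CPM in wild type. Its mutant libraries lay inside the wild-type range (log2 fold change -0.027 ± 0.087, edgeR adjusted p = 0.820).

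Duplicate copies were compared within each library as the log2 ratio of their reads, a measure free of depth and scaling. The 3 pairs were tested by an exact two-sided permutation test and adjusted over the 3 ratios. The log2 ratio of sox21a to sox21b was 0.93, 0.90, 0.87, 0.80 and 0.53 in mutant replicates 1 to 5, against 1.20, 1.26, 1.42, 1.31 and 1.21 in wild type. The groups did not overlap. The ratio was lower in mutants by a difference of -0.48 ± 0.083 (SE, p = 0.00794 by exact permutation, adjusted p = 0.0238), so the copies changed unequally.

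The other ratios overlapped between the groups. The log2 ratio of sox1a to sox1b averaged -1.01 ± 0.20 in mutants and -0.68 ± 0.15 in wild type (SD, n = 5 each), a difference of -0.33 ± 0.11 (SE) with an adjusted p of 0.0476 by exact permutation. The call ended without mutant replicate 2 (adjusted p = 0.0714) or 5 (0.0794), or without wild-type replicate 1 (0.0714), 2 (0.0833), 3 (0.0556) or 4 (0.0833). The log2 ratio of sox19a to sox19b averaged 4.19 ± 0.11 in mutants and 4.03 ± 0.12 in wild type (SD, n = 5 each), a difference of 0.17 ± 0.070 (SE) with an adjusted p of 0.0476 by exact permutation. That call ended without mutant replicate 2 (0.0873), 3 (0.0873), 4 (0.0952) or 5 (0.0794), or without wild-type replicate 1 (0.111), 2 (0.0873) or 4 (0.0873).

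**Figure D3:**
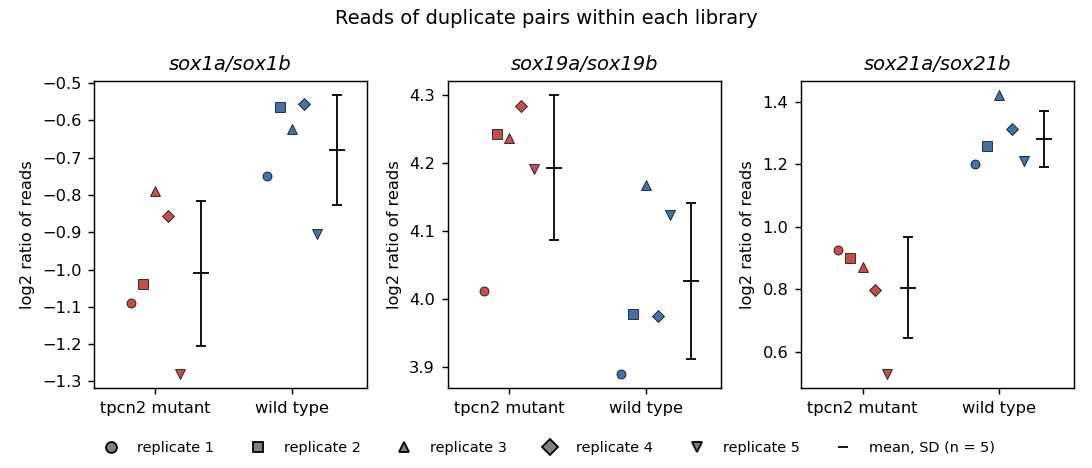
Log2 ratio of the reads of each duplicate pair within a library (vertical axis, a separate scale per pair that does not start at 0), tpcn2 mutant in red on the left and wild type in blue on the right, with mean and SD. The sox21a to sox21b ratios of the mutant, 0.53 to 0.93, all lie below those of wild type, 1.20 to 1.42, and the other 2 pairs overlap.

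sox2 and sox3, which moved in opposite directions, were also set against each other in each library, a ratio chosen after its values were seen and not tested. The log2 ratio of sox2 to sox3 reads was -2.75 to -2.47 in mutants and -4.19 to -2.87 in wild type. The ranges did not overlap, and the mutant libraries were nearer each other (SD 0.12) than the wild-type libraries (SD 0.51). Wild-type replicate 1 had the lowest value, -4.19, and the other wild-type libraries lay between -3.49 and -2.87.

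In the authors' deposited table the same 4 genes had negative log2 fold changes past an adjusted p of 0.05, and no other member passed. Called in either direction were thus 4 of 8 members, against 39.4% of the genes that have an adjusted p there. The values in the authors' deposited table were -0.49 for sox21a, -0.37 for sox19b, -0.28 for sox3 and -0.21 for sox19a. sox2 had 0.39 in the authors' deposited table with an adjusted p of 0.0869, and did not pass.

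For each called member the 3 most similar genes were sought among 11233 others. The measure was the root mean square difference of log2 CPM over the 10 libraries after each gene was centred on its mean. It includes the difference between the groups, so a gene can rank high through a like fold change alone. No chance level was computed. The gene nearest to sox3 was sox11b (0.058), a SoxC gene of newly formed neurons, followed by fezf1 (0.066), a forebrain transcription factor, and med30 (0.067), a Mediator subunit gene. For scale, sox3 itself varied by 0.19 about its mean. sox19b was nearest to hoxb8b (0.069), a Hox gene of the trunk, with dynlt1 (0.094) and lhx1b (0.097) next, and itself varied by 0.24. sox19a was nearest to dnlz (0.047), nfyc (0.049) and plcd1b (0.051), with 0.14 about its own mean. sox21a was nearest to cab39 (0.062), zcchc17 (0.076) and slc23a1 (0.080), with 0.28 about its own mean. The differences were larger for sox2, which itself varied most, by 0.40 about its mean. Its nearest genes were tln1 (0.15), which encodes talin, setd6 (0.17) and glg1b (0.17). Of the similar genes, glg1b and dnlz were not themselves called (edgeR adjusted p = 0.0527 and 0.0990).

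Other Sox genes, which share the HMG box, moved in both directions, with 5 of 11 tested falling and 2 rising (63.6% called, against 42.2% over all tested genes). The SoxC genes sox11b and sox11a fell. Also SoxC genes, sox4a (0.067 ± 0.048) and sox4b (0.21 ± 0.16) did not pass (edgeR adjusted p = 0.322 and 0.321). sox11a was at 332 ± 19.2 CPM in mutants and 371 ± 30.0 CPM in wild type, a change of -0.16 ± 0.063 on the log2 scale (edgeR adjusted p = 0.0376). Its call ended when mutant replicate 1, 2, 3 or 4 or wild-type replicate 2 was left out. sox11b was at 368 ± 11.1 CPM in mutants and 446 ± 47.0 CPM in wild type, a change of -0.28 ± 0.070 on the log2 scale. The SoxE genes sox9b (-1.15 ± 0.29) and sox10 (-0.23 ± 0.085), both of the neural crest, and the SoxD gene sox6 (-0.34 ± 0.11) fell too. Another SoxD gene, sox5, did not pass (-0.026 ± 0.058, edgeR adjusted p = 0.752). Levels of sox9b were low, at 2.48 ± 0.42 CPM in mutants and 5.51 ± 2.36 CPM in wild type. The SoxE gene sox9a, which acts in cartilage, and the SoxF gene sox7, which acts in endothelium, rose by 0.64 ± 0.070 and 0.61 ± 0.079 on the log2 scale. sox14, the remaining SoxB2 gene of the table, was at 1.68 ± 0.71 CPM in mutants and 2.41 ± 0.53 CPM in wild type and did not pass (edgeR adjusted p = 0.160).

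Genes of neural progenitors other than Sox genes fell more often than they rose, 13 of 30 falling and 3 rising, with a median log2 fold change of -0.17 and 53.3% called, against 42.2% over all tested genes. The Zic family gene zic5, which acts in the dorsal neural tube, was at 31.1 ± 0.74 CPM in mutants and 48.8 ± 2.55 CPM in wild type, a change of -0.65 ± 0.037 on the log2 scale. zic4 (-0.65 ± 0.11), her3 (-0.58 ± 0.099), a repressor of neurogenesis, and pou3f3b (-0.48 ± 0.069), of the POU family whose members bind DNA together with SoxB proteins, also fell. lin28a (0.37 ± 0.065), which blocks let-7 processing, fabp7b (1.11 ± 0.21) and msi2b (0.19 ± 0.056) rose. Levels of fabp7b were low, at 1.52 CPM in mutants and 0.698 CPM in wild type. Its duplicate fabp7a, at 15.5 and 17.5 CPM, did not pass (-0.17 ± 0.15, edgeR adjusted p = 0.325). msi2a, the duplicate of msi2b, fell (-0.55 ± 0.11). gfap, pax6b and the adhesion gene cdh2, all genes of the neural tube, did not pass (-0.058, -0.15 and -0.0080 on the log2 scale), a choice of names made after their values were seen. The summed level of the 30 genes was 2247 to 2451 CPM in mutants and 2481 to 2739 CPM in wild type.

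In the list of genes of neurons and their precursors, 19 of 35 fell and 1 rose (57.1% called, against 42.2% over all tested genes), with a median of -0.27, the second lowest of the 10 lists. The tubulin genes tubb5 (-0.98 ± 0.062), tuba1a (-0.997 ± 0.070) and tuba1c (-0.59 ± 0.043) and the stathmin gene stmn4 (-1.07 ± 0.11) fell, and isl2a (0.31 ± 0.058), of motor and sensory neurons, rose. Its duplicate isl2b fell (-0.74 ± 0.11), and the related isl1 did not pass (-0.13 ± 0.049). tuba1a and tuba1c are close paralogs among which reads may be split. The summed level of the list was 1097 to 1191 CPM in mutants and 1468 to 1582 CPM in wild type, without overlap. Much of that difference lay in the tubulin genes. Their means in mutants and wild type were 99.5 and 199 CPM (tuba1a), 65.9 and 130 CPM (tubb5) and 117 and 176 CPM (tuba1c). Of the 35 genes, 15 were not called, among them elavl3 (-0.14 ± 0.066), neurog1 (0.096 ± 0.099) and syt1a (-0.012 ± 0.16). The part of the list in the SoxB differences was not tested.

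**Figure D4:**
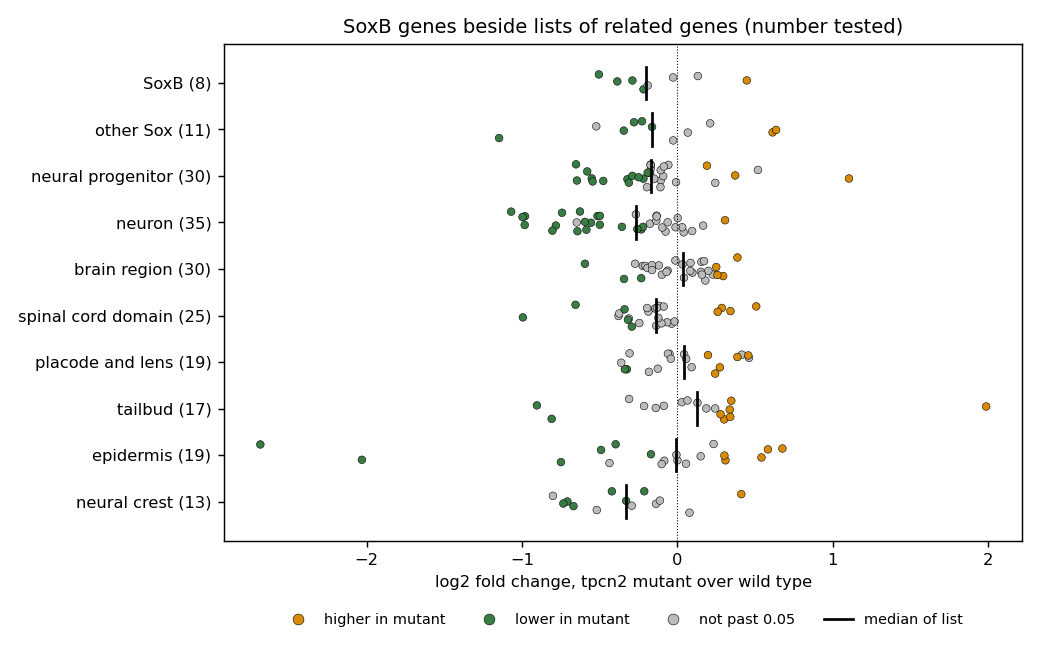
Log2 fold change, tpcn2 mutant over wild type (horizontal axis), of each tested gene in the SoxB list and 9 other lists (rows, number tested in brackets), coloured by the edgeR call at an adjusted p of 0.05, with a black bar at each median. The medians run from -0.33 (neural crest) to 0.13 (tailbud), and that of the SoxB genes is -0.20.

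Of 30 genes that mark regions of the brain 3 fell and 4 rose, so 23.3% were called, where the share over all tested genes was 42.2%. eng1b (-0.59 ± 0.13) of the midbrain-hindbrain boundary, nkx2.4b (-0.34 ± 0.11) of the ventral forebrain and emx2 (-0.23 ± 0.088) of the telencephalon fell, and mafba (0.26 ± 0.048) and irx7 (0.39 ± 0.11) of the hindbrain, irx1b (0.30 ± 0.096) and the forebrain gene six3a (0.25 ± 0.076) rose. Of 25 genes of spinal cord progenitor domains and interneurons 5 fell and 4 rose (36.0% called). gsx1 (-0.99 ± 0.15), dbx1b (-0.66 ± 0.15), prdm12b (-0.32 ± 0.079) and irx3a (-0.29 ± 0.045) fell, while gata2a (0.51 ± 0.085), prdm8 (0.34 ± 0.081) and the dorsal genes msxb (0.29 ± 0.035) and msxe (0.26 ± 0.073) rose. The summed levels of both lists overlapped between the groups. In RNA of whole embryos, changes of these genes within the nervous system and outside it cannot be told apart.

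Outside the neural tube, SoxB genes are also used in sensory placodes, the lens and the tailbud. Of 19 placode and lens genes 5 rose and 2 fell (36.8% called, against 42.2% over all tested genes), with dlx3b (0.46 ± 0.070), six1a (0.39 ± 0.094), the ear gene oc90 (0.27 ± 0.083) and dlx5a (0.20 ± 0.066) higher and eya1 (-0.34 ± 0.037) and dlx4b (-0.32 ± 0.080) lower. The summed level of the 19 genes was 805 to 833 CPM in mutants and 757 to 803 CPM in wild type. Within that sum, oc90 was at 238 ± 5.45 CPM in mutants and 197 ± 24.1 CPM in wild type. The median log2 fold change of the list was 0.044. Of 17 tailbud genes 6 rose and 2 fell (47.1% called), and the summed level was 908 to 1007 CPM in mutants and 644 to 795 CPM in wild type. The largest part of that difference was sall4, a zinc finger gene of progenitors, at 257 ± 13.3 CPM in mutants and 64.5 ± 32.3 CPM in wild type. fgf8a (0.34 ± 0.074), wnt5b (0.34 ± 0.081) and tbx16 (0.35 ± 0.13) rose, and the posterior Hox genes hoxc13a (-0.90 ± 0.18) and hoxa13b (-0.81 ± 0.14) fell. Of the 17 genes 9 were not called, among them msgn1 (0.065 ± 0.12), cdx4 (0.029 ± 0.078), tbx6 (0.24 ± 0.25) and cyp26a1 (-0.21 ± 0.14). The part of the tailbud genes in the sox2 difference was not tested.

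Among genes listed for the neural crest, 6 of 13 fell and 1 rose (53.8% called, against 42.2% over all tested genes). RNA of whole embryos does not show in which tissue a listed gene changed. pax7b (-0.73 ± 0.13), pax7a (-0.67 ± 0.11), pax3a (-0.42 ± 0.066) and twist1a (-0.33 ± 0.065) fell, and snai1b (0.41 ± 0.14) rose. Epidermal genes were called in both directions, 6 of 19 falling and 5 rising (57.9% called), with a median of -0.0059. Their summed levels were 37069 to 41162 CPM in mutants and 36813 to 43089 CPM in wild type. Most of these sums was the keratin gene krt4, not called, with means of 28882 CPM in mutants and 28865 CPM in wild type. The annexin gene anxa1b (-2.03 ± 0.054), the keratin gene cyt1 (-0.75 ± 0.082) and the ictacalcin genes icn (-2.68 ± 0.30) and icn2 (-0.49 ± 0.14) fell, and epcam (0.58 ± 0.077), cldne (0.54 ± 0.066), anxa1a (0.68 ± 0.15) and grhl1 (0.30 ± 0.062) rose.

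For 9 of these related genes the call was near the threshold and ended in some of the 10 fits that each leave out 1 library, with the direction kept. In the fit with the highest edgeR adjusted p, the log2 fold change was -0.18 for emx2 (0.115, without mutant replicate 4, the call ending in 8 fits), 0.17 for msi2b (0.0992, without wild-type replicate 3, 7 fits) and 0.33 for snai1b (0.0938, without wild-type replicate 5, 7 fits). It was -0.30 for nkx2.4b (0.0805, without wild-type replicate 5, 6 fits), 0.15 for dlx5a (0.0997, without mutant replicate 3, 5 fits) and 0.22 for msxe (0.0812, without mutant replicate 2, 5 fits). It was -0.18 for sox10 (0.0840, without mutant replicate 4, 5 fits), -0.12 for sox11a (0.105, without mutant replicate 3, 5 fits) and 0.21 for six3a (0.0614, without mutant replicate 4, 3 fits).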

How the data were processed

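Whole-embryo RNA-seq counts of 10 libraries were analysed. Values in the deposited count table are raw counts, 1 row per symbol. The submitters' processing notes name the read trimmer cutadapt 3.4, the aligner STAR 2.7, DESeq2 1.30.0, danRer10 and mm10, without saying how each was used. Which program counted reads, and whether it used strand, is not given in the sources used here. A second deposited table by the authors holds log2 fold changes, p-values, a mean signal of scaled counts and a test statistic, a score, per the file headers. Its direction was read from the sign of tpcn2.

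Counts were filtered (filterByExpr), TMM-scaled and tested with edgeR 4.0.16 (glmQLFit, glmQLFTest, R 4.3.3), genotype as the only term, threshold 0.05. The test was run first on simulated counts in which far fewer genes changed than were called here. That run therefore does not check the test under so many changes. SEs of fold changes are those of the difference between the group means of log2 CPM (prior count 2), from the spread within groups. The fold changes and p-values come from the edgeR fit, so these SEs are not those of that fit. Pair ratios used reads plus 0.5, and exact permutation tests all 252 splits (Python 3.11.15). The 9 other lists held 226 genes, 214 in the table (10 through RefSeq GRCz12tu synonyms) and 199 tested. From each list up to 4 genes per direction with the smallest p were named. Beside that rule, sox4a, sox4b, sox5, sox11a, sox14, gfap, pax6b and cdh2 were named after their values were seen. So were fabp7a, msi2a, elavl3, neurog1, isl1, isl2b, syt1a, msgn1, tbx6, cdx4 and cyp26a1. Members and lists were chosen with earlier results of these data known. Alternatives were RLE, library size alone, DESeq2 1.42.0, limma-voom 3.58.1, 2 other filters, a replicate block and leaving out each library.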

Additional observations from a re-analysis of the deposited data

Results flagged for a closer look

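sox21a was at 60.3 CPM in wild-type replicate 1, while the 4 remaining wild-type libraries lay between 78.8 and 82.4 CPM. The gap between that library and the next lowest made up more than 0.71 of the range of the group. 22 groups of 5 values (8 genes and 3 ratios in each genotype) were examined in this way, and chance flags about 1 in 20. Leaving that library out moved the log2 fold change of sox21a to -0.58. The same library was highest of its group in sox3 and lowest in sox2.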

How the results depend on the processing

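The count of SoxB genes lower in the mutant was 4 under each of the 7 other settings and 4 to 5 without 1 library. The count of higher genes was 0 with library size alone and with DESeq2, and 0 to 1 without 1 library, since sox2 was the only such call. sox3, sox19a, sox19b and sox21a passed under every setting run. The sign of sox21b, not called, changed without wild-type replicate 2 or 5 (-0.087 to 0.016 without 1 library). Same-numbered libraries of the groups correlated in their deviations at only -0.062 to 0.075. For mutant replicates 2 and 3 the best-correlated wild-type library had the same number, and for the others it did not. The labels do not say whether the numbers pair libraries, and these correlations cannot settle it. With the replicate block no SoxB call changed. For the pair ratios the replicate block (exact sign-flip test) cannot pass the threshold, its smallest p being 0.0625, and gave that p for sox1a/sox1b (-0.33), sox19a/sox19b (0.17) and sox21a/sox21b (-0.48). Without 1 library the differences were -0.39 to -0.26 for sox1a/sox1b, 0.13 to 0.21 for sox19a/sox19b and -0.51 to -0.41 for sox21a/sox21b, which passed in each of these. Adding 1 in place of 0.5 to reads changed no ratio call. Counts of the other lists also moved, and not every shift is given here. DESeq2 called 5 brain region genes lower in place of 3, and 7 spinal cord domain genes lower in place of 5. The block called 3 placode genes higher in place of 5 and 0 neural crest genes higher in place of 1. Without 1 library, 3 to 5 other Sox genes and 1 to 4 brain region genes were lower, and 3 to 5 placode and 0 to 2 neural crest genes higher. In the same fits 11 to 14 neural progenitor genes were lower, and 3 to 6 brain region and 4 to 6 tailbud genes higher. The cause of these shifts was not tested. For sox3 and sox19a counting error was 1.01 to 1.20%, against a spread of 5.64 to 11.4%. It was nearer to the spread for sox1a (5.48 to 5.91% against 6.36 to 9.35%). The part of depth in these spreads was not tested. Counting errors treat reads as independent, and the counts do not show whether PCR copies were removed.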

Other observations

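The tested genes that flank each SoxB gene in the RefSeq gene order of GRCz12tu, a different assembly from those in the processing notes, were looked up by name. Of 16 flanking genes 6 fell and 3 rose by edgeR at the same threshold, so 56.2% were called, where 42.2% of all tested genes were. The largest change was that of crhr2, a receptor gene next to sox3, at 9.22 CPM in mutants and 2.09 CPM in wild type, a change of 2.13 ± 0.23 on the log2 scale, while fgf13a on the other side of sox3 fell (-0.70 ± 0.21). txndc9 beside sox1a fell by 1.03 ± 0.067 on the log2 scale, with sox1a itself not called, and smarcal1 beside sox21b rose (0.69 ± 0.071) with sox21b not called. fkbp11 fell (-0.41 ± 0.060) beside sox21a, which also fell, and dnajc19 fell (-0.56 ± 0.19) beside sox2, which rose. sox19a and sox19b lie between copies of the same gene pair, mpdu1 and eif4a1. Beside sox19a, mpdu1a rose (0.37 ± 0.12) and eif4a1b fell (-0.25 ± 0.044), and beside sox19b, eif4a1a fell (-0.18 ± 0.073) and mpdu1b did not pass (-0.26, adjusted p = 0.152 by edgeR). sox19b is the member that lies on the same chromosome as tpcn2 in that assembly.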
